A study of Mus musculus with 11 samples.

Results

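The response of VAT Treg cells to the agonist peptide Fat1562 was set against the response of Treg cells with the same TCR in Spl/LN, gene by gene, as the interaction of tissue and immunization. For each gene this is the log2 fold change of Fat1562 against control in VAT minus the same fold change in Spl/LN, so a value above 0 says that the response was more positive in VAT. Of the 52997 genes listed in the count table, 12932 had a group mean over 10 once the 11 libraries were brought to one size, and these were tested. The interaction was called for 481 genes, 3.72% of those tested, at an edgeR adjusted p under 0.05, of which 220 (1.7%) were above 0 and 261 (2.02%) below 0. At an unadjusted p under 0.05 there were 2191. The 4 groups were Spl/LN control (n = 3), Spl/LN Fat1562 (n = 3), VAT control (n = 2) and VAT Fat1562 (n = 3). All the sorted cells came from vTreg53 Tg+ donors on the C57BL/6 background and were transferred into CD45.1 B6 recipients, males of 15 weeks according to the sample names. The Fat1562 recipients were immunized subcutaneously with the peptide in CFA at 6 weeks after transfer and boosted intraperitoneally with the peptide in IFA 1 week later. The labels call the control mice PBS and unimmunized and the study's methods describe adjuvant without peptide, so whether the controls saw adjuvant is not settled and "control" is used here. The donor TCR is that of 1 VAT Treg clone, the recipients kept their own T cells, and whether a library is 1 mouse or a pool is not stated.

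Foxp3+ Treg cells are CD4+ T cells that restrain immune responses, and they act after their TCR meets its peptide on an MHC class II molecule. Treg cells of visceral adipose tissue are known for a program of their own, with the nuclear receptor Pparg, the IL-33 receptor Il1rl1, the cytokines Il10 and Areg, and a set of chemokine receptors. TCR signals are known to raise immediate early transcription factors within minutes to hours, and repeated signals to raise inhibitory receptors and to drive division.

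Each library held 1000 double-sorted clonotype+ cells, made into cDNA by Smart-seq2 from an oligo(dT) primer without molecular identifiers, and total counts ran from 4490242 to 6570057. Errors below are SE of the fit on the log2 scale, n is as given for the groups, and normalized counts are brought to the mean library size. CPM below is the usual count scaled to library size. Foxp3 had normalized counts of 7342, 7662 and 7315 in Spl/LN control, 6746, 7242 and 7311 in Spl/LN Fat1562, 10255 and 9412 in VAT control and 9091, 8251 and 9111 in VAT Fat1562, with an interaction of −0.09 ± 0.10 (adjusted p = 0.739). The interval of that difference was −0.31 to 0.13. Markers of other cells were not all absent. Ms4a1 had at most 6 raw counts, Cd8a 7, Adipoq 9 and Mcpt8 none, but Ighm had 5547 to 22887, Cd79b 42 to 223, Cd8b1 62 to 158, Pecam1 188 to 615 and Kit 1 to 162. The B cell list, most of it Ighm, summed to 1070 to 5136 CPM in VAT control, 1150 to 1597 in VAT Fat1562, 3299 to 3471 in Spl/LN control and 2386 to 2557 in Spl/LN Fat1562. Raw counts of Jchain, the joining chain of secreted antibody, were 0, 504 and 67 in Spl/LN control, 5, 6 and 2 in Spl/LN Fat1562, 58 and 1388 in VAT control and 5, 3 and 29 in VAT Fat1562, so the control libraries numbered 2 stood apart in both tissues. The interaction was called for none of the 6 tested B cell markers and none of the 11 tested plasma cell markers. Of the latter, 4 were called lower with Fat1562 in VAT and 2 in Spl/LN, against 3.97% and 1.4% of all tested genes. The summed level of the plasma cell list was 661 to 2694 CPM in VAT control and 594 to 643 in VAT Fat1562, and 494 to 1573 and 528 to 591 in Spl/LN control and Fat1562. Without both control libraries of number 2 the interaction was called for 251 genes, 220 of them among the 481. Fewer cells of a type and less RNA per cell cannot be told apart in such bulk libraries.

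Most of the interaction was a response called in VAT alone. By which of its own tissue effects passed the test, an interaction gene was VAT only in 304 cases (146 rose and 158 fell), Spl/LN only in 81 (51 rose and 30 fell), opposite in direction in 28, the same in direction but different in size in 15, and without a call in either tissue in 53. A response called in 1 tissue and not in the other is here always backed by the test of the difference. For 260 of the 304 VAT only genes the 95% interval of the Spl/LN effect also lay within 2-fold either way, and for 61 of the 81 Spl/LN only genes the interval of the VAT effect did. That bound, 1 on the log2 scale, is wide. The median called effects of genes that rose and fell were 1.06 and −0.82 for VAT only and 0.80 and −1.14 for Spl/LN only. The VAT effect was the larger of both in size in 367 of the 481 genes. The Spl/LN only class was 37.0% positive interactions here and 51.0% of 104 genes with quantile normalization and limma. Over all tested genes, Fat1562 raised 559 (4.32%) and lowered 514 (3.97%) in VAT, and raised 334 (2.58%) and lowered 181 (1.4%) in Spl/LN. The effects in the tissues share no library, and their Pearson correlation across the tested genes was 0.194 (Spearman 0.156), as a description over genes that are not independent. Of the 559 genes raised in VAT, 67.8% also had a fold change above 0 in Spl/LN, 101 were called higher there and 9 lower. Of the 514 lowered in VAT, 61.9% were below 0 in Spl/LN, 50 were called lower and 19 higher.

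**Figure D1:**
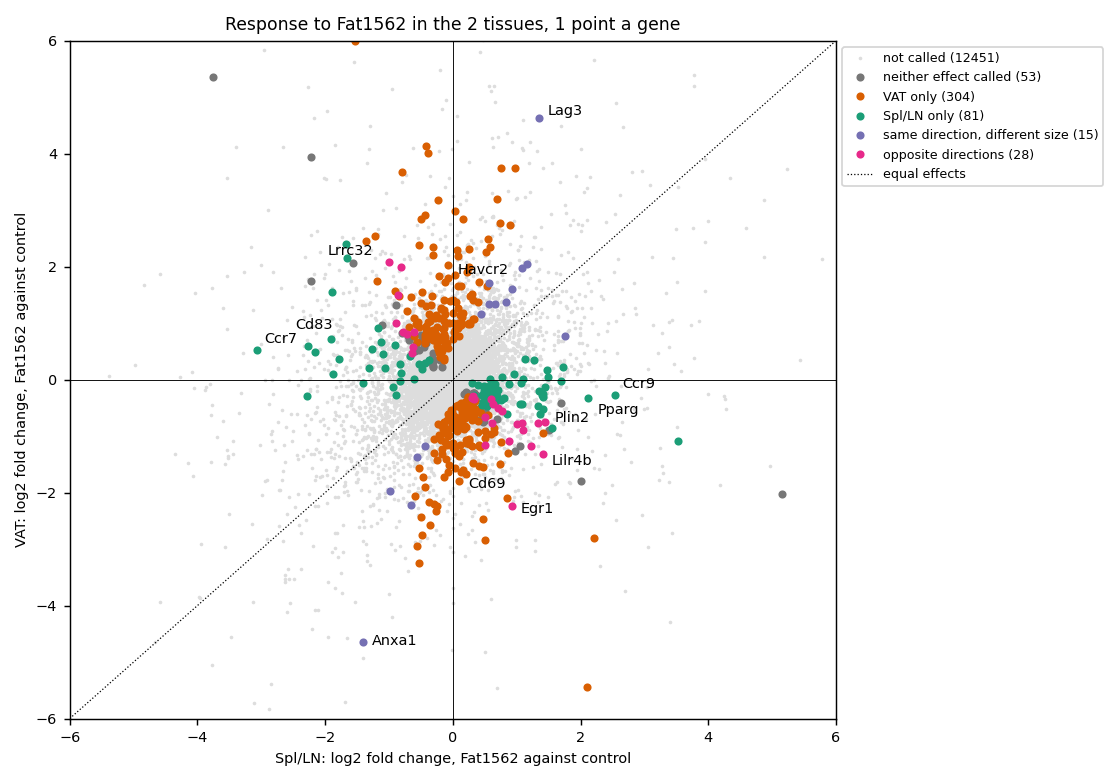
Log2 fold change of Fat1562 against control in Spl/LN (horizontal axis) and in VAT (vertical axis), 1 point for each of the 12932 tested genes, coloured by response class; 42 genes lie outside the axes, 3 of them with the interaction called. The 304 VAT only genes spread along the vertical axis and the 81 Spl/LN only genes along the horizontal axis, while Lrrc32 and Egr1 sit in opposite quadrants off the dotted line of equal effects.

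The response classes also differed in how the gene stood between the tissues. The tissue difference was taken over all libraries with weights that leave its sampling error uncorrelated with that of both Fat1562 effects. A true response to Fat1562 still enters the difference, because the Fat1562 libraries are part of it, and that part was not tested. The difference also includes any effect of handling, since the study's methods describe a collagenase digestion for VAT and none for Spl/LN. Of all tested genes, 12.4% were called higher and 11.9% lower in VAT. Of the 481 interaction genes, from which the classes were drawn, 36.0% were called higher and 23.1% lower. Of the 51 genes that rose only in Spl/LN, 34 were called higher in VAT and 4 lower. Among the 30 that fell only in Spl/LN the order was turned, with 16 called lower in VAT and 9 higher. The 19 genes that fell in VAT and rose in Spl/LN had 14 called higher in VAT and 0 lower, and the 9 with the other pattern had 5 called lower and 1 higher. The VAT only genes were less one-sided. Of the 158 that fell, 69 (43.7%) were called higher and 29 (18.4%) lower in VAT. Of the 146 that rose, 26 (17.8%) were higher and 42 (28.8%) lower. For comparison, the 481 genes together had 36.0% and 23.1%, and the 10 same-direction genes that rose in both tissues had 40% and 20%. The gap between the tissues was smaller with Fat1562 than in the controls for 339 of the 481 genes (70.5%, against 56.3% of all tested genes), a description only, because the gap and the interaction use the same libraries.

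**Figure D2:**
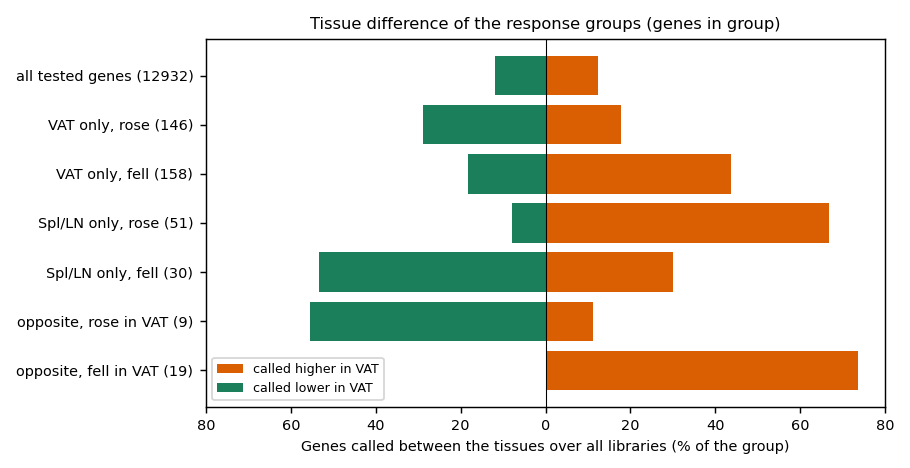
Share of each response group called higher (right) or lower (left) in VAT than in Spl/LN over all 11 libraries, in percent, with the number of genes in the group in brackets. Among all tested genes 12.4% were called higher and 11.9% lower, against 66.7% and 7.84% for genes that rose only in Spl/LN and 73.7% and 0% for genes that fell in VAT while they rose in Spl/LN. The 481 interaction genes together, not drawn, had 36.0% and 23.1%.

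Lrrc32 led the genes that rose in VAT and fell in Spl/LN. It encodes GARP, which holds latent TGF-β on the Treg surface, and lies at chr7:98489283-98502181 on the plus strand (GRCm38). Its normalized counts were 543, 797 and 597 in Spl/LN control and 341, 280.0 and 348 in Spl/LN Fat1562, against 253 and 292 in VAT control and 1252, 1167 and 1022 in VAT Fat1562. No library of one condition overlapped the other in either tissue, and the control order, with Spl/LN above VAT, was turned after Fat1562. The log2 fold change was 2.08 ± 0.18 in VAT (adjusted p = 1.16e-06) and −0.99 ± 0.15 in Spl/LN (adjusted p = 0.000684), with an interaction of 3.07 ± 0.23 (adjusted p = 2.52e-06), the smallest p of the positive genes.

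The other 8 genes of this pattern had smaller interactions, from 1.10 to 2.80. Chchd10, a protein of the mitochondrial intermembrane space, had 194, 233 and 176 in Spl/LN control and 117, 82.3 and 129.7 in Spl/LN Fat1562, then 70.5 and 82.3 in VAT control and 239, 237 and 170.5 in VAT Fat1562. Its interaction was 2.36 ± 0.33 (adjusted p = 0.000561). Hbs1l, a GTPase that frees stalled ribosomes, changed by 1.01 in VAT and by −0.89 in Spl/LN (interaction 1.90 ± 0.22, adjusted p = 0.000111); 32.3% of the 38-base stretches of its transcripts also occur in other genes, so its counts are uncertain. Slamf6, a receptor of the SLAM family, was low in VAT throughout. It had 1650.3, 1782 and 1759 in Spl/LN control, 1231, 971 and 1214 in Spl/LN Fat1562, 205 and 244 in VAT control and 305, 401 and 493 in VAT Fat1562, so that both tissues moved towards each other without meeting. Its interaction was 1.44 ± 0.23 (adjusted p = 0.0014). Tbc1d4, which controls the traffic of glucose transporter vesicles, was scarcer still in VAT, with 7.59 and 8.73 in control and 39.3, 25.4 and 33.7 in Fat1562 libraries, whereas Spl/LN had 422, 431 and 321 in control and 244, 185 and 241 in Fat1562. Cd101, a surface receptor of the immunoglobulin superfamily, had an interaction of 1.54 ± 0.26, AB124611 of 1.63 ± 0.29 and Prc1, which bundles microtubules in cytokinesis, of 1.19 ± 0.20. Ctss, the lysosomal protease cathepsin S, moved by 0.47 in VAT and −0.63 in Spl/LN. Ctss stood in the list of macrophage, monocyte and dendritic cell markers, of which 7 of 24 could be tested and only Ctss had the interaction called. The summed level of that list, most of it Ctss and Cst3, was 486 to 551 CPM in VAT control, 609 to 659 in VAT Fat1562, 702 to 812 in Spl/LN control and 556 to 602 in Spl/LN Fat1562. Its members Csf1r, Adgre1 and C1qa had at most 19, 10 and 9 raw counts, and Lyz2 at most 73. Itgam, an integrin chain of myeloid cells, had 0 and 5 raw counts in VAT control, 53, 12 and 17 in VAT Fat1562, 11 to 45 in Spl/LN control and 44 to 80 in Spl/LN Fat1562. It and Ctss were the 2 members called higher in VAT, and the part of such cells in the Ctss values was not tested.

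**Figure D3:**
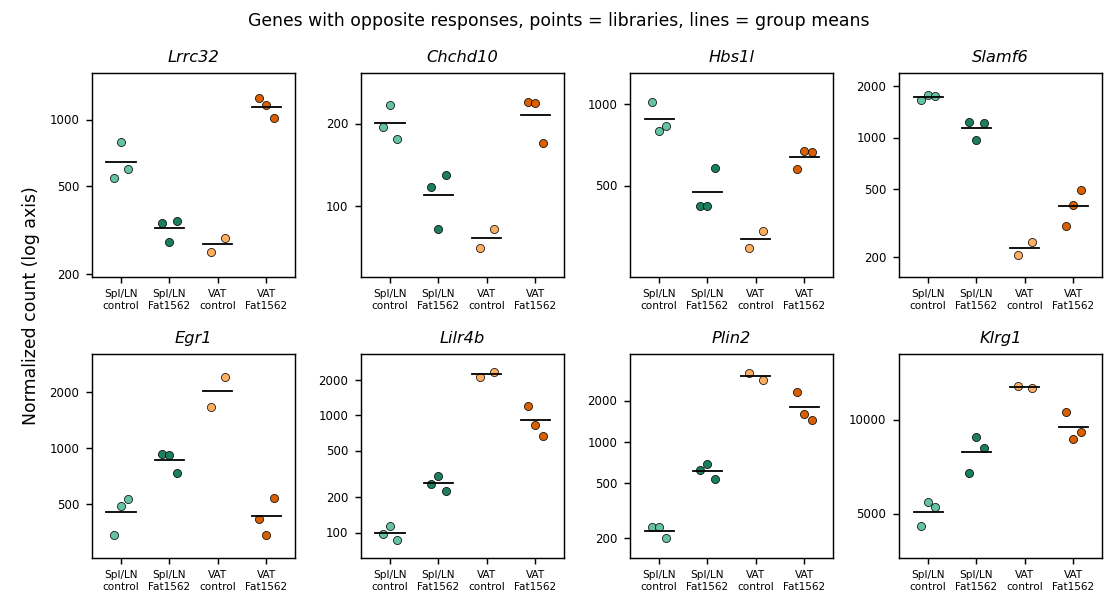
Normalized counts (log axis) of 8 genes called in opposite directions, with 1 point a library and a line at the group mean, for Spl/LN control, Spl/LN Fat1562, VAT control and VAT Fat1562. Lrrc32, Chchd10, Hbs1l and Slamf6 rose with Fat1562 in VAT and fell in Spl/LN; Egr1, Lilr4b, Plin2 and Klrg1 did the reverse, and in none of the 8 do the Fat1562 and control libraries of a tissue overlap.

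Egr1 was the foremost of the 19 genes with the reverse pattern. It is an immediate early transcription factor downstream of the TCR. The VAT controls had 1658 and 2417 normalized counts and the VAT Fat1562 libraries 416, 342 and 541, whereas Spl/LN had 342, 489 and 529.6 in control and 931, 917 and 739 in Fat1562 libraries. After Fat1562 the Spl/LN libraries were thus all above those of VAT. The log2 fold change was −2.23 ± 0.20 in VAT against 0.92 ± 0.18 in Spl/LN, with an interaction of −3.16 ± 0.27 (adjusted p = 8.53e-06), the smallest p of all negative genes.

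The paired receptors Lilr4b and Lilrb4a, immunoglobulin-like receptors that can restrain activation, moved together. Lilr4b had 96.5, 115 and 86.7 in Spl/LN control, 259, 305 and 227 in Spl/LN Fat1562, 2133 and 2355 in VAT control and 1210.3, 834 and 672 in VAT Fat1562, a rise of 1.41 ± 0.20 in Spl/LN and a change of −1.31 ± 0.18 in VAT (interaction adjusted p = 2.63e-05). Lilrb4a changed by 1.33 in Spl/LN and −0.77 in VAT (interaction −2.10 ± 0.23, adjusted p = 7.48e-05). These 2 genes share sequence, with 31.6% of the stretches of Lilr4b and 52.4% of those of Lilrb4a found in other genes, so their reads cannot be fully told apart.

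Plin2, which coats lipid droplets, had 240.2, 241 and 199 in Spl/LN control and 630.2, 688 and 535 in Spl/LN Fat1562. In VAT it had 3178 and 2857 in control and 2319, 1596 and 1447 in Fat1562 libraries. The Spl/LN level thus rose towards a VAT level that fell, by 1.45 ± 0.16 and −0.76 ± 0.16 on the log2 scale, and its interaction was −2.20 ± 0.23 (adjusted p = 3.61e-05). Klrg1, a lectin-like receptor of differentiated T cells, had 4575, 5435 and 5240.0 against 6739, 8819.6 and 8149.6 in Spl/LN control and Fat1562, and 12857 and 12608 against 10608, 8687 and 9163 in VAT control and Fat1562 (interaction −1.06 ± 0.15, adjusted p = 0.000518). The galectin Lgals3 (−1.84), the calcium-binding S100a4 (−1.21), the leukotriene B4 receptor Ltb4r1 (−1.66) and the interferon-γ receptor chain Ifngr1 (−0.94) had interactions of the same sign, each with higher counts in every VAT control than in any Spl/LN library. S100a4 shares 48.5% of its stretches with other genes.

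The remaining genes that fell in VAT and rose in Spl/LN were Echdc2 (interaction −2.41 ± 0.38), Lztfl1 (−1.99 ± 0.29), Art2a-ps (−1.97), the AP-1 subunit Fosl2 (−1.79), the phosphatase Ppm1j (−1.39), the small GTPase Arl5b (−1.31), C920009B18Rik (−1.16), the common cytokine receptor γ chain Il2rg (−0.68), the kinase Rps6ka1 (−0.63) and the actin Actg1 (−0.61). Lztfl1 (chr9:123694416-123717697, minus strand) lies within the span of Ccr9 on the other strand, a gene that also rose in Spl/LN. The strand setting is not known, so the counts of Lztfl1 and Ccr9 may not be separate. Fosl2 had 39.5, 34.4 and 63.9 in Spl/LN control and 124, 100.5 and 59.2 in Spl/LN Fat1562, so these groups overlapped, and 3674 and 3805 in VAT control and 2415, 2202 and 1925 in VAT Fat1562. In the last 3 genes both effects were small, between −0.35 and 0.33, and Actg1 shares 39.2% and Il2rg 28.3% of their stretches with other genes.

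Among the 146 genes that rose only in VAT, the inhibitory receptor Havcr2 (TIM-3) and the RNA-binding protein gene Zc3h12d had the smallest p-values. Havcr2 was level in Spl/LN, with 357, 371 and 383 in control and 372, 316 and 369.9 in Fat1562 libraries, and had 312 and 338 in VAT control and 1409, 978 and 1015 in VAT Fat1562. The fold change was 1.80 ± 0.16 in VAT (adjusted p = 2.16e-06), and its interval in Spl/LN was −0.36 to 0.23 (interaction 1.87 ± 0.21, adjusted p = 9.22e-05). Zc3h12d had 527 and 595 in VAT control and 1596, 1532 and 1302 in VAT Fat1562, while the 6 Spl/LN libraries lay between 831 and 957 (interaction 1.44 ± 0.16, adjusted p = 7.48e-05). The interval of its Spl/LN effect was −0.27 to 0.17.

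By size of the interaction, the leading genes of this class were low in VAT controls. Pik3ap1, an adaptor that links receptors to PI3 kinase, had 8.68 and 13.7 in VAT control and 146, 154 and 154 in VAT Fat1562, a change of 3.76 ± 0.38. In Spl/LN it had 47.3, 33.3 and 31 in control and 55.3, 83.4 and 80.9 in Fat1562, also without overlap, and its Spl/LN effect of 0.97 ± 0.27 narrowly missed the threshold (adjusted p = 0.0566). Eno3, the muscle form of the glycolytic enzyme enolase, had 77.2, 77.1 and 42 in Spl/LN control, 52.4, 56.6 and 49.6 in Spl/LN Fat1562, 45.6 and 52.4 in VAT control and 259.6, 248 and 171 in VAT Fat1562 (interaction 2.51 ± 0.41, adjusted p = 0.00182). The mitochondrial aspartate-glutamate carrier Slc25a13 changed by 2.85 in VAT with a Spl/LN interval of −0.53 to 0.84, and the adhesion molecule Ncam1 by 3.20 with a Spl/LN interval of −0.12 to 1.50. Bcar1, a docking protein of integrin signaling, and Bcat1, which starts the breakdown of branched-chain amino acids, rose in VAT by 2.55 and 1.58. Both had Fat1562 libraries below all controls in Spl/LN, at −1.22 (adjusted p = 0.189) and −0.91 (adjusted p = 0.124), which did not pass the test there. The interaction of Ncam1 (adjusted p = 0.0432) did not pass in 12 of 20 alternative settings and that of Slc25a13 in 2.

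**Figure D4:**
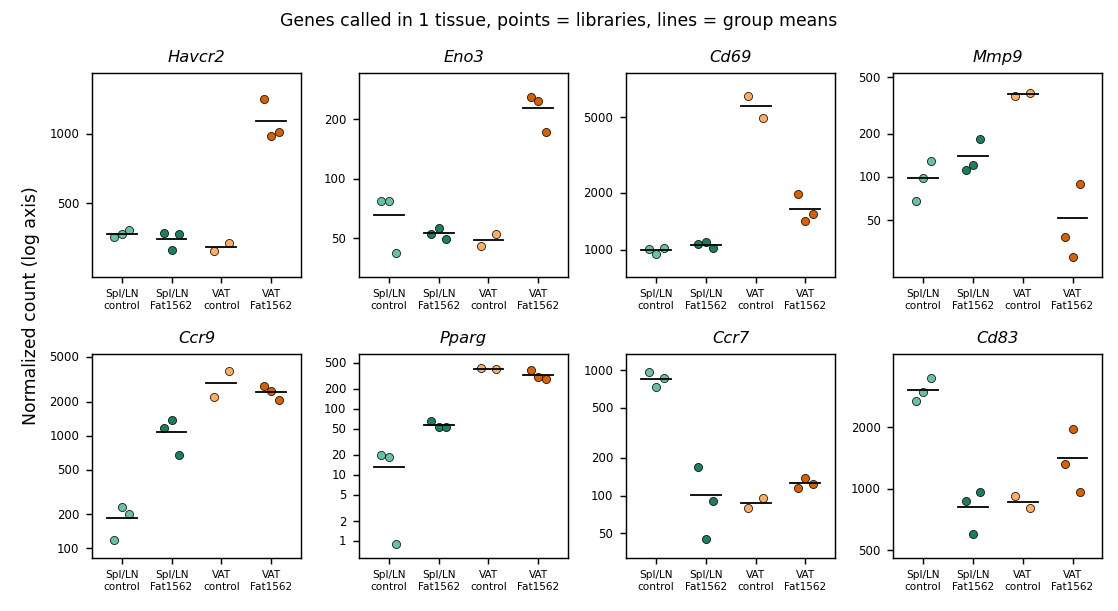
Normalized counts (log axis) of 8 genes called in 1 tissue only, with 1 point a library and a line at the group mean, for Spl/LN control, Spl/LN Fat1562, VAT control and VAT Fat1562. Havcr2 and Eno3 rose and Cd69 and Mmp9 fell in VAT alone, while Ccr9 and Pparg rose and Ccr7 and Cd83 fell in Spl/LN alone.

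Genes of mitosis had more positive interactions than any other list. All 60 listed genes were tested, 27 had a positive and 0 a negative interaction (1.7% and 2.02% of all tested genes), and 59 had an interaction above 0. Of the 27, 23 rose in VAT only, while Prc1 was opposite in direction, Smc4 fell in Spl/LN only, and Aurka and Hmmr passed in neither tissue. The median log2 fold change of the list was 0.72 in VAT and −0.20 in Spl/LN, against 0.01 and 0.00 over all tested genes. In the list 32 were called higher in VAT and 2 called lower in Spl/LN, against 4.32% and 1.4% of all tested genes. The 27 became 11 without VAT control 2, 12 without VAT control 1, 15 without Spl/LN Fat1562 2 and 16 without VAT Fat1562 2 or 3, and the 32 became 8, 13, 28, 17 and 20; no member had a negative interaction in any of these runs. Top2a, which untangles replicated chromosomes, had 1347, 1055 and 1008 in Spl/LN control, 966, 946 and 892 in Spl/LN Fat1562, 900.4 and 697 in VAT control and 1151, 1447 and 1439 in VAT Fat1562. For Top2a every VAT Fat1562 library was above both VAT controls, and every Spl/LN Fat1562 library was below its controls (interaction 1.03 ± 0.20, adjusted p = 0.0062). Cdk1, the kinase that starts mitosis, had 437 and 355 in VAT control and 615, 655 and 655 in VAT Fat1562, with an interaction of 0.93 ± 0.20 (adjusted p = 0.0151). Foxm1, a transcription factor of the G2 phase, had an interaction of 1.70 ± 0.37, the largest of the list's called genes, and the cyclin Ccnb1, of which 26% of the stretches recur elsewhere, one of 1.23 ± 0.27. Summed over the list, the level was 2852 to 2878 CPM in VAT control, 4033 to 5336 in VAT Fat1562, 4150 to 5243 in Spl/LN control and 3635 to 3868 in Spl/LN Fat1562. The VAT controls were thus the lowest group, and the VAT Fat1562 libraries overlapped the Spl/LN controls. Of 54 E2F targets and replication genes, 54 had a VAT fold change above 0, 20 were called higher in VAT and 5 had the interaction called, all positive. These counts rested on single libraries and on the tool. The interaction count was 1 without VAT control 2, 3 without Spl/LN Fat1562 2 or VAT Fat1562 2, 8 without Spl/LN control 2, 10 without Spl/LN control 3 and 15 without VAT control 1, and 10 with quantile normalization and limma and 19 with DESeq2. The 20 called higher in VAT became 1 without VAT control 2, 2 without VAT Fat1562 2 and 11 without VAT Fat1562 1. The list summed to 4127 CPM in VAT control 1 and 2946 in VAT control 2, against 5068 to 6040 in VAT Fat1562. The 5 genes were Tk1 (1.08), E2f8 (1.85), Fancd2 (2.31), Ccne2 (2.06) and Rrm2 (1.02).

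The promoters of these mitosis genes share sequence elements that the comparison did not use. The cell cycle homology region (CHR) and the CCAAT box are elements known to recruit regulators of late cell cycle genes. RefSeq promoter windows (GRCm38.p6, 250 bases before to 50 after the start, the first listed where a gene had several) were found for 50 of the 60 mitosis genes and 9219 of the 12932 tested genes. The letters TTTGAA, searched on both strands as the CHR, were in 76% of the mitosis windows and 12.2% of all tested windows. CCAAT, also on both strands, was in 72% against 39.1%, and both occurred together in 62% against 5.07%. Of the 22 windows of mitosis genes with the interaction called, 18 held both. The windows of Top2a and Cdk1 are shown since both genes carry both elements, written 5′ to 3′ on the gene's strand with each match in capitals (TTTGAA or TTCAAA for the CHR, CCAAT or ATTGG for the box).
Top2a (chr11:99024140-99024439, minus strand): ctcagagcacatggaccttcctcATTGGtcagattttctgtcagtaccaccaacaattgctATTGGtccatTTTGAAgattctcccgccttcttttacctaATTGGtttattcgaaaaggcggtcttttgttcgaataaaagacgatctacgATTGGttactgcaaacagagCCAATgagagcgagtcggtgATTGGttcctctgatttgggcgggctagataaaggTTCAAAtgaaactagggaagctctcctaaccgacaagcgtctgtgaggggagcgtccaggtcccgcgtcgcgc
Cdk1 (chr10:69352863-69353162, minus strand): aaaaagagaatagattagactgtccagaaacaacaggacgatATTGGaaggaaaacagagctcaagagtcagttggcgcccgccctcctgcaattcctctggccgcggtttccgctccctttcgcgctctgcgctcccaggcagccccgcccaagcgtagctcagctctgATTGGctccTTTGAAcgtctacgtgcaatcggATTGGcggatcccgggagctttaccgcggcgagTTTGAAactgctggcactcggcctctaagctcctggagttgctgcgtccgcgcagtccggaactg
In Top2a the match nearest the start is a CHR whose first base lies at −23, and in Cdk1 one at −15, with CCAAT boxes upstream of it in both. A match is a run of letters, and no binding was measured.

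Genes that fell only in VAT numbered 158, and 3 of the 5 negative genes of smallest p were among them. Cd69, an early activation antigen that holds T cells in tissue, had 6466 and 4966 in VAT control and 1979, 1425 and 1546 in VAT Fat1562, against 1009, 952 and 1018 in Spl/LN control and 1067, 1104 and 1023 in Spl/LN Fat1562. The VAT change was −1.79 ± 0.13 (adjusted p = 1.91e-07) and the Spl/LN interval −0.15 to 0.35, with an interaction of −1.89 ± 0.17 (adjusted p = 1.42e-05). Btg2, a brake on proliferation, had 5526 and 4705 against 1586, 1606 and 1624 in VAT control and Fat1562 (interaction −1.88 ± 0.18, adjusted p = 1.93e-05), and all 6 Spl/LN libraries were between 627 and 950. Ctla2a, an inhibitor of cysteine proteases, had 5055 and 5652 in VAT control and 1796, 1486 and 1559.6 in VAT Fat1562 (interaction −1.60 ± 0.15, adjusted p = 1.42e-05), though 31.8% of its stretches recur in other genes.

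By size, the gelatinase Mmp9 led this class among genes with a mean of at least 10 in every group. Its libraries had 367 and 388 in VAT control, 38.2, 27.5 and 89.3 in VAT Fat1562, 67.5, 98.9 and 129.7 in Spl/LN control and 112, 122 and 185 in Spl/LN Fat1562 (interaction −3.35 ± 0.49, adjusted p = 0.000825). Cxcl10, a chemokine that draws Cxcr3+ cells, had 356 and 331 against 69.7, 86.5 and 31.9 in VAT control and Fat1562, and 88.7, 80.2 and 29.2 against 52.4, 93 and 126 in Spl/LN, so that VAT fell into the Spl/LN range (interaction −2.93 ± 0.57, adjusted p = 0.00731). AA467197 fell by 2.09 on the log2 scale in VAT from 824 and 959, and had 13.5 to 41.7 in Spl/LN. The actin-binding Nebl changed by −3.25 in VAT, with a Spl/LN interval of −1.27 to 0.21. Il10, the suppressive cytokine, was a VAT transcript, with 1235 and 1048 in VAT control and 906, 341 and 526 in VAT Fat1562 against 17.4, 13.5 and 8.22 in Spl/LN control. All 3 Spl/LN Fat1562 libraries were above the Spl/LN controls, at 27.6, 36.3 and 40.0, but that change of 1.42 ± 0.44 missed the threshold (adjusted p = 0.0866). The Il10 interaction was −2.37 ± 0.51 (adjusted p = 0.0142).

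Most of the tested immediate early genes fell in VAT. Of 38 tested, 22 were called lower and 1 higher in VAT, and 7 lower and 2 higher in Spl/LN. The interaction was negative in 13 (8 without VAT control 1) and positive in 3. Over all tested genes, 3.97% were lower and 4.32% higher in VAT, and 1.4% lower and 2.58% higher in Spl/LN. The interaction was negative in 2.02% and positive in 1.7% of them. The median fold change was −0.85 in VAT and −0.20 in Spl/LN. Their summed level was 27231 to 31135 CPM in VAT control and 12870 to 15035 in VAT Fat1562, and 3421 to 3562 in Spl/LN control against 2976 to 3247 in Spl/LN Fat1562. The VAT controls were thus far above both Spl/LN groups, and VAT Fat1562 stayed between. The study's methods describe a warm collagenase digestion for VAT and give no such step for Spl/LN. Tissue and handling therefore cannot be told apart in the level of these genes, and the part of handling was not tested. Nr4a1, an orphan nuclear receptor that reports TCR signals, had 22873 and 17953 in VAT control, 11491, 9585 and 8774 in VAT Fat1562, 629.8, 977 and 1089 in Spl/LN control and 1147, 1512 and 1157 in Spl/LN Fat1562. In VAT the Fat1562 libraries were below both controls, and in Spl/LN they were above all 3 (interaction −1.54 ± 0.24, adjusted p = 0.0014), where the change of 0.50 ± 0.16 did not pass (adjusted p = 0.106). Zfp36, which speeds the decay of cytokine mRNAs, changed by −1.63 in VAT with a Spl/LN interval of −0.15 to 0.39. Sik1 (−1.18), Dusp5 (−1.01), Klf6 (−0.93) and Csrnp1 (−0.82) had called interactions of the same sign. The members with a positive interaction were the phosphatase Dusp2, which rose by 1.25 ± 0.21 in VAT alone, and Rgs1 and Myc, which fell in Spl/LN alone, at −0.89 and −0.83. The interactions of Csrnp1 and Myc each passed in only 9 of 19 alternative settings.

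The window of Nr4a1 is shown for its repeated CRE cores, letters bound by the cAMP response element family. TGACG, on either strand, was in 55.2% of 29 immediate early windows and 33.1% of all tested windows, and in 6 of the 10 windows of immediate early genes with a negative interaction. Each match is in capitals (CGTCA on the strand shown), with first bases at −233, −213, −69 and −40.
Nr4a1 (chr15:101266596-101266895, plus strand): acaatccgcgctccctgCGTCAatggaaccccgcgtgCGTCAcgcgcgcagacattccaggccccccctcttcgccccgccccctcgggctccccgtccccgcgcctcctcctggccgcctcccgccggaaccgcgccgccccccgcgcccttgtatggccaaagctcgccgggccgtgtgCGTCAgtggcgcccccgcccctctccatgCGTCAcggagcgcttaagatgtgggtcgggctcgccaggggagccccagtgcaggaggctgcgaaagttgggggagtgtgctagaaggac
The AP-1 letters TGANTCA were in 1 of these 29 windows, 3.45%, against 4.66% of all tested windows.

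In Spl/LN alone, the genes that Fat1562 raised included transcripts that were abundant in VAT Treg cells with or without the peptide. Ccr9, a chemokine receptor of gut homing (chr9:123678439-123784330), had 118, 233 and 203 in Spl/LN control and 1173, 1389 and 672 in Spl/LN Fat1562, whereas VAT had 2207 and 3724 in control and 2757, 2506 and 2094 in Fat1562. The groups of VAT overlapped, and no Spl/LN library reached them. The change was 2.54 ± 0.27 in Spl/LN (adjusted p = 3.28e-05) and its VAT interval −0.82 to 0.28, with an interaction of −2.82 ± 0.37 (adjusted p = 0.00032). Of the stretches of Ccr9, 20.7% also occur in other genes, and its span holds Lztfl1 on the other strand. Pparg, the nuclear receptor of the VAT Treg program, had 20.3, 18.7 and 0.913 in Spl/LN control, 64.8, 53.4 and 53.6 in Spl/LN Fat1562, 413 and 398 in VAT control and 392, 303 and 282 in VAT Fat1562. It rose in Spl/LN by 2.12 ± 0.42 (adjusted p = 0.00743) and stayed below every VAT library, while the VAT change was −0.32 ± 0.32 (adjusted p = 0.638; interaction −2.44 ± 0.53, adjusted p = 0.0144). That interaction did not pass with DESeq2 or without VAT control 1. The raw counts behind the Spl/LN controls of Pparg were 21, 18 and 1. Cxcr6, a receptor of tissue-resident T cells, had 340.5, 383 and 477 against 931, 1219 and 1014 in Spl/LN and 5517 and 5312 against 5468, 4086 and 3896 in VAT (interaction −1.67 ± 0.20, adjusted p = 0.000178).

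The secreted factor Metrnl (Spl/LN 1.56 ± 0.36), the ubiquitin ligase Trim16 (1.37 ± 0.33), the clotting factor subunit F13a1 (1.41 ± 0.34) and Tdrkh (1.34 ± 0.23) completed the 6 of this class with the largest interactions. In all 4 the VAT Fat1562 libraries were below the VAT controls without passing the test, with adjusted p-values of 0.131, 0.32, 0.471 and 0.286. The interaction of F13a1 did not pass in 11 of 20 alternative settings and that of Trim16 in 5. Srebf2, the transcription factor of sterol synthesis, had 515, 595 and 530.5 in Spl/LN control, 755, 884 and 736 in Spl/LN Fat1562, 847 and 665 in VAT control and 561, 468 and 609 in VAT Fat1562. It rose in Spl/LN by 0.53 ± 0.13, and the VAT value of −0.47 ± 0.14 narrowly missed the threshold (adjusted p = 0.0553; interaction adjusted p = 0.00703). The lymphocyte survival GTPases Gimap4, Gimap5, Gimap6 and Gimap7 rose in Spl/LN only as well. Of their family, Gimap3 also had the interaction called, and Gimap1, Gimap8 and Gimap9 did not. Gimap7 had 987, 1324 and 1512 in Spl/LN control and 2817, 3399 and 2981 in Spl/LN Fat1562 (interaction −0.92 ± 0.18). The cAMP-responsive repressor Crem rose by 1.09 ± 0.12 in Spl/LN with a VAT interval of −0.24 to 0.27, and the membrane protease Adam8 by 1.05 ± 0.13 with one of −0.73 to −0.13; these Gimap genes, Crem and Adam8 were chosen after their values were seen.

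Of the 30 genes that fell only in Spl/LN, Ccr7 had the largest interaction among those with a mean of at least 10 in every group. This receptor guides T cells into lymph nodes (chr11:99144196-99155077). It had 962, 735 and 865 in Spl/LN control and 169, 44.9 and 90.5 in Spl/LN Fat1562, and 79.2 and 96 in VAT control and 115, 137 and 124 in VAT Fat1562, so the Spl/LN libraries fell to around the VAT level, with 1 above, 1 within and 1 below the VAT range. The change was −3.07 ± 0.29 in Spl/LN (adjusted p = 1.28e-05), its VAT interval was −0.21 to 1.25 and its interaction 3.59 ± 0.45 (adjusted p = 0.000239). Cd83, a surface marker of activation, had 2692, 2978 and 3483 in Spl/LN control, 872, 605 and 963 in Spl/LN Fat1562, 925 and 803 in VAT control and 1329, 1959 and 968 in VAT Fat1562. Both tissues separated and in opposite senses, but the VAT change of 0.71 ± 0.23 did not pass (adjusted p = 0.066; interaction 2.62 ± 0.31, adjusted p = 0.000122). Capn3, a calpain protease, fell from 164, 202 and 189.9 to 49.6, 28.9 and 35.2 in Spl/LN. H2-Oa, a chain of the DO chaperone of class II loading, fell from 146, 149 and 153 to 32.4, 40.6 and 56.8, and Gpr18, a lipid receptor, from 328, 316 and 268 to 127, 131 and 147. Prune2 changed by −1.89. Itgae, the αE integrin CD103, had 5866, 5444 and 5155 in Spl/LN control, 2556, 1695 and 1963 in Spl/LN Fat1562, 1809.5 and 1827 in VAT control and 1859.8, 1673 and 1695 in VAT Fat1562. After a change of −1.41 ± 0.12, 1 Spl/LN library lay within the VAT range and 2 above it, and the VAT interval was −0.34 to 0.21 (interaction 1.34 ± 0.18, adjusted p = 0.00032).

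Lag3 and Anxa1 responded in both tissues and far more in VAT. Lag3, an inhibitory receptor that binds MHC class II (chr6:124904361-124911705), had 196, 373 and 315 in Spl/LN control, 749, 766 and 731 in Spl/LN Fat1562, 101 and 132 in VAT control and 3106, 2570.3 and 2935 in VAT Fat1562. The VAT controls were below every Spl/LN library and the VAT Fat1562 libraries above them all. It rose by 4.63 ± 0.23 in VAT and 1.35 ± 0.17 in Spl/LN (interaction 3.28 ± 0.27, adjusted p = 5.8e-06). Anxa1, a phospholipid-binding protein that dampens inflammation (chr19:20373428-20390944), went the other way, with 286, 246 and 255 against 76.3, 99.4 and 118 in Spl/LN and 2110.1 and 1671 against 110.1, 57 and 62.9 in VAT. Its fold change was −4.64 ± 0.23 in VAT and −1.41 ± 0.20 in Spl/LN (interaction −3.23 ± 0.30, adjusted p = 1.42e-05). Tigit, another inhibitory receptor, rose by 1.38 ± 0.11 and 0.84 ± 0.09, and its interaction of 0.54 ± 0.14 (adjusted p = 0.0389) did not pass in 10 of 20 alternative settings. Ephx1 (1.15), Litaf (0.90), the cathepsin inhibitor Cst7 (0.89), Lrba (0.71), Anxa2 (0.68) and Hdac7 (0.78) also rose more in VAT, whereas Itih5 rose more in Spl/LN (−0.98). The AP-1 subunit Junb had 42451 and 37986 in VAT control and 18610.4, 18573 and 16289 in VAT Fat1562, and 3463, 3427 and 3600.2 against 2517, 2657 and 2587 in Spl/LN (interaction −0.74 ± 0.10). Gm4956 (−1.56), Tasp1 (−0.98) and Gadd45b (−0.82) fell more in VAT as Junb did. The interaction did not pass in 12 of 20 settings for Hdac7, 9 for Gadd45b, 6 each for Litaf and Tasp1, 3 for Cst7 and 2 for Junb. For these genes and Tigit, 1 of the settings not passed was the 2-fold minimum, which an interaction under 1 in size misses by definition.

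Nfil3, Cd4 and the cell cycle genes E2f2, E2f7 and Ccnb2 had no called interaction. Nfil3, a transcription factor, rose in both tissues, by 1.21 ± 0.16 in VAT against 0.75 ± 0.15 in Spl/LN, but the difference of 0.47 ± 0.21 did not pass (adjusted p = 0.272). E2f2 rose in VAT by 1.01 ± 0.26 and the cyclin Ccnb2 by 0.93 ± 0.21, with intervals in Spl/LN of −0.34 to 0.56 and −0.29 to 0.46, but their interactions of 0.90 ± 0.34 (adjusted p = 0.165) and 0.84 ± 0.27 (adjusted p = 0.103) did not pass. E2f7 was not called in either tissue, at 1.12 ± 0.34 in VAT and −0.37 ± 0.30 in Spl/LN (interaction adjusted p = 0.0861). E2f8 alone of this family had the interaction called, with 23.9 and 34.9 in VAT control, 103, 93.6 and 95.7 in VAT Fat1562 and 64.8 to 107 in the Spl/LN libraries (adjusted p = 0.0142). Cd4 rose in Spl/LN by 0.50 ± 0.08, and its interaction of −0.26 ± 0.13 was not called (adjusted p = 0.313).

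VAT-Treg genes, as a list of 44 tested transcripts known to mark these cells, had 19 negative and 4 positive interactions, and 31 of the 44 values were below 0. Over all tested genes, 2.02% had a negative and 1.7% a positive interaction. The 19 became 12 without both control libraries of number 2, and leaving out 1 library moved the 4 to as low as 1. In VAT 17 were called lower and 6 higher, and in Spl/LN 12 were called higher and 3 lower, with medians of −0.37 and 0.19. The group was divided by which tissue moved. Il1rl1 had 6610.1 and 6443 in VAT control and 2767, 1611 and 1531 in VAT Fat1562, a change of −1.73 ± 0.19, and the tissue repair factor Areg had 8385 and 6281 against 3665, 4002 and 2313 (change −1.14 ± 0.17). Their Spl/LN intervals were −0.84 to −0.10 and −0.17 to 0.68. The transcription factors Gata3 (−0.82) and Rora (−0.87), the triglyceride enzyme Dgat1 (−0.74), the inhibitory receptor Cd200r1 (−1.21), the eotaxin receptor Ccr3 (−2.07), the cytokine receptor Il9r (−1.22), the chemokine receptor Ccr2 (−0.69) and the suppressive Fgl2 (−0.78) fell in VAT only too. For Ccr3 the Spl/LN change of −0.60 narrowly missed the threshold (adjusted p = 0.0588). The interactions of Gata3 and Fgl2 passed in only 8 and 9 of 19 alternative settings. Pparg, Cxcr6 and S100a6 rose in Spl/LN only, and Plin2, Klrg1, Lgals3 and S100a4 did both. The exceptions, with positive interactions, were Ccr8, which rose in VAT only (1.00 ± 0.15), Anxa2, Itgae and Scd2. The interactions of Ccr8, Anxa2 and Scd2 passed in 9, 10 and 11 of 19 alternative settings, and that of Itgae in all 19. In the controls Anxa2, Itgae and Scd2 were not higher in VAT, with means of 1871, 5488 and 146 in Spl/LN and 1135, 1818 and 49.9 in VAT. Markers of group 2 innate lymphoid cells, mast cells and basophils also fell in VAT. Only 3 of 14 were tested, Kit and Il5 were called lower in VAT, and the interaction was called for none. Their sum was 32.3 to 45.2 CPM in VAT control, 3.31 to 10.8 in VAT Fat1562, 1.59 to 11.3 in Spl/LN control and 3.20 to 5.21 in Spl/LN Fat1562, with Mcpt8 at 0 throughout. Some VAT-Treg genes, such as Il1rl1, Gata3 and Areg, are also used by those cells, and their part was not tested. Among chemokine and homing receptors, 5 of 33 had a positive and 8 a negative interaction.

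**Figure D5:**
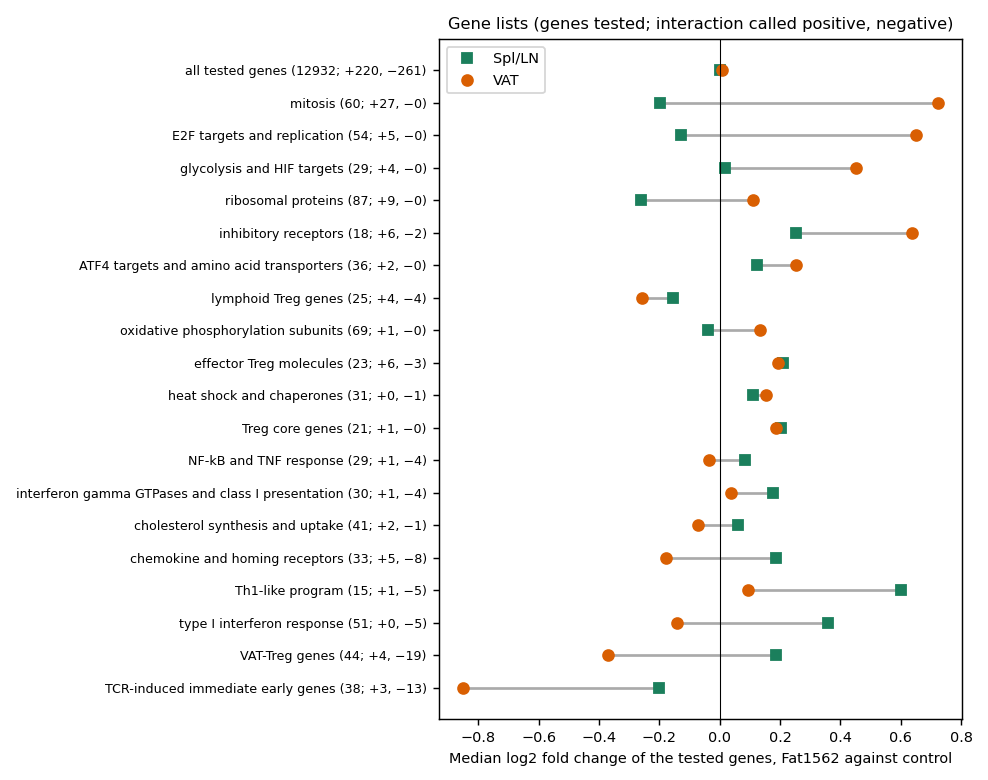
Median log2 fold change of Fat1562 against control over the tested genes of each gene program list (marker lists of other cells are not drawn), in Spl/LN (squares) and VAT (circles), with the number tested and the numbers with a positive and a negative interaction called in brackets. Mitosis (0.72 in VAT and −0.20 in Spl/LN) and immediate early genes (−0.85 and −0.20) have the highest and lowest VAT medians of the lists drawn, and all tested genes at 0.01 and 0.00.

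Inhibitory receptors and effector molecules were mixed. Over all tested genes, 1.7% had a positive and 2.02% a negative interaction. Of 18 inhibitory receptor genes tested, 11 had an interaction above 0, 6 had a positive interaction and 2 a negative one, Lilrb4a and the nuclear factor Tox2 (VAT −1.19), which the list also held. Besides Lag3, Havcr2, Tigit and Cd101, the positive ones were Nt5e, the ectoenzyme CD73, and Cd200, which rose in VAT by 1.99 ± 0.18 and 1.41 ± 0.27. Nt5e had 1179.6, 1437 and 1472 in Spl/LN control, 2128, 1416 and 1305 in Spl/LN Fat1562, 395 and 430.3 in VAT control and 1806, 1611 and 1489 in VAT Fat1562, so its VAT level reached that of Spl/LN. Of 23 effector Treg molecules tested, with medians of 0.19 in VAT and 0.21 in Spl/LN, 14 had an interaction above 0, 6 had a positive and 3 a negative interaction, with Lag3, Tigit and Nt5e in both lists. Itgb8, an integrin chain that activates latent TGF-β, had 277 and 248 in VAT control, 1229, 879 and 744 in VAT Fat1562 and a Spl/LN interval of −0.32 to 0.40. Perforin, Prf1, rose by 2.03 ± 0.32 in VAT. It was also the only 1 of the 5 tested CD8 T and NK cell markers (of 13) with the interaction called. That list summed to 53.7 to 73.2 CPM in VAT control and 72.0 to 104 in VAT Fat1562, and to 46.8 to 94.4 and 56.3 to 62.2 in Spl/LN control and Fat1562, with Cd8a at 0 in every VAT library but Cd8b1 at 158 and 155 raw counts in VAT control and 103, 90 and 150 in VAT Fat1562; the part of such cells was not tested. Pecam1, an adhesion molecule of endothelium and leukocytes and 1 of the 2 tested adipocyte and stroma markers (of 20), rose in VAT only (1.00 ± 0.17), and that list, most of it Pecam1, summed to 54.1 to 56.1 CPM in VAT control, 86.8 to 115 in VAT Fat1562, 100 to 108 in Spl/LN control and 97.8 to 114 in Spl/LN Fat1562, which was not tested further. The negative ones were Il10, Areg and Fgl2. Of the 21 Treg core genes only Izumo1r, the folate receptor FR4, had the interaction called (1.03 ± 0.15).

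Type I interferon and Th1-like genes leaned to the Spl/LN side, and interferon-γ GTPase and class I genes did not. Over all tested genes, 2.02% had a negative and 1.7% a positive interaction, and 2.58% were called higher in Spl/LN and 4.32% in VAT. Of 51 type I interferon genes, 5 had a negative and 0 a positive interaction, 47 values were below 0, and the medians were −0.14 in VAT and 0.36 in Spl/LN. The 5 became 1 without Spl/LN Fat1562 2 or VAT control 1, 9 without VAT control 2 and 9 with DESeq2. In Spl/LN 10 were called higher, a count of 4 without Spl/LN Fat1562 2 and 6 without Spl/LN Fat1562 1 or Spl/LN control 1, and Lgals3bp, a secreted glycoprotein, had 792, 913 and 819 in control and 2127, 2311 and 2017 in Fat1562 libraries with a VAT interval of −0.46 to 0.08 (interaction −1.55 ± 0.17, adjusted p = 7.48e-05). In VAT, Samd9l (−0.86) and Ifi35 (−0.59) fell. Nlrc5, the activator of MHC class I genes, had 3134 and 3184 in VAT control and 1451, 1438 and 1468 in VAT Fat1562 (interaction −1.13 ± 0.13, adjusted p = 7.48e-05). The class I genes H2-K1 (−0.47) and H2-D1 (−0.49) fell in VAT with it, and 16.1% and 20.3% of their stretches occur in other genes. Of 30 interferon-γ GTPase and class I genes, these 3 and Cxcl10 had a negative interaction, and the GTPase Gbp5 a positive one (1.56). All 5 were VAT only. Of the 30, 4 were called higher and 5 lower in VAT, against 4.32% and 3.97% of all tested genes, and 0 either way in Spl/LN. In the Th1-like list of 15, 8 were called higher in Spl/LN and 5 in VAT, the interaction was negative in 5 and positive in 1, and the interleukin receptor chains went apart. Il12rb1 rose in Spl/LN only (0.70 ± 0.14) and Il18r1 in VAT only (1.42 ± 0.22).

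Called interactions were a minority of each metabolic and ribosomal list. Positive ones were still more frequent in the glycolysis and ribosomal lists than over all tested genes. Over all tested genes, 1.7% had a positive and 2.02% a negative interaction. In VAT 4.32% were called higher, and in Spl/LN 2.58% higher and 1.4% lower. Glycolysis and HIF targets had 4 positive interactions of 29, Slc16a3, Pgk1, Tpi1 and Bnip3, with 14 called higher in VAT and 1 in Spl/LN. Leaving out 1 library gave 2 to 7 positive interactions. Slc16a3, the lactate exporter, had 283 and 211 in VAT control and 1534, 1195 and 813 in VAT Fat1562 (interaction 1.74 ± 0.29). Pgk1 and Bnip3 share 54.4% and 53.3% of their stretches with other genes, and the interaction of Bnip3 passed in only 9 of 19 alternative settings. Ribosomal protein genes had 9 positive interactions of 87, with 85 values above 0 and a median of 0.36, and 8 were called lower in Spl/LN. With quantile normalization and limma the same counts were 28 and 39, and with DESeq2 19 and 29. The 9 became 3 without Spl/LN Fat1562 2, VAT control 1, VAT control 2 or VAT Fat1562 2, 4 without Spl/LN Fat1562 1 and 5 without VAT Fat1562 3, and the 8 ranged from 0 without Spl/LN Fat1562 2 to 26 without Spl/LN control 1. Their fold changes were small, with medians of 0.11 in VAT and −0.26 in Spl/LN, and many have processed pseudogenes, so single members are uncertain. Oxidative phosphorylation subunits had 1 call of 69, Ndufa4 (0.81), and the amino acid genes under ATF4 had 2 of 36, Phgdh (1.05) and Mthfd2 (0.74). Cholesterol genes had 2 positive and 1 negative of 41, heat shock genes 1 negative of 31 (Dnaja1, −1.47) and NF-κB genes 1 positive and 4 negative of 29. The lymphoid Treg list of 25 had 4 of each sign, among them Ccr7, Ift80 and Il6st falling in Spl/LN, Itgb3 rising in Spl/LN, and Klf2, Cd55 and Rasgrp2 falling in VAT. Leaving out 1 library gave 0 to 4 negative interactions in the lymphoid list, 1 to 6 among NF-κB genes, 3 to 5 in the Th1-like list and 5 to 11 among chemokine and homing receptors, and 0 to 2 positive ones among cholesterol genes.

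Some interaction genes were near 0 in a group and are given by counts alone. Sgip1 had raw counts of 10, 9 and 9 in Spl/LN control, 5, 4 and 13 in Spl/LN Fat1562, 16 and 13 in VAT control and 101, 132 and 146 in VAT Fat1562, so it was low in every group but VAT Fat1562. The unnamed locus AC120347.1 had 98 and 77 in VAT control and 16, 15 and 11 in VAT Fat1562, with at most 13 counts in a Spl/LN library. Gm28942 had 4 and 4 in VAT control and 15, 31 and 28 in VAT Fat1562, and 115, 114 and 152 against 63, 83 and 131 in Spl/LN control and Fat1562. Fam19a3 and 9930120I10Rik were called in neither tissue. In both, every VAT Fat1562 library was below the VAT controls and every Spl/LN Fat1562 library above its controls, and raw counts of Fam19a3 were 54 and 47 in VAT control and 13, 10 and 28 in VAT Fat1562. Over all 481 interaction genes, 184 had non-overlapping libraries in opposite senses in the tissues, as did 3.43% of all tested genes, against the 28 for which both effects passed the test.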

How the data were processed

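Poly(A) RNA of 11 libraries of sorted vTreg53 Tg+ Treg cells was sequenced as paired 38-base reads on a NextSeq500. The authors deposited 1 table of raw counts per gene. The submitters' processing notes name STAR 2.5.4, featureCounts and mm10, while the study's methods name Cuffquant; the annotation and strand setting are not given in the sources used here, so overlapping and antisense genes cannot be told apart. Libraries were grouped by their titles. Counts were fitted as deposited with edgeR 4.0.16 in R 4.3.3 (TMM scaling, quasi-likelihood test, 4 groups in 1 fit, prior count 0.125), with Benjamini-Hochberg adjustment over the 12932 tested genes and a threshold of 0.05. Every adjusted p in the text is from that test unless another tool is named, SE is the fold change over the root of F, and intervals are 95%. The script was tested on simulated data. p-values measure the spread between these libraries, which may be technical.

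Genes were named by rule: per class and direction the 6 largest interactions with a mean of at least 10 in each group and non-overlapping libraries, the 5 smallest p of each sign, 3 low genes of each sign by counts, 11 genes of interest, among them genes and pathways of the study, and called members of the lists. The members and lists were chosen with earlier results of these data known. Shared stretches are runs of 38 bases found in transcripts of other genes (GENCODE vM21, GRCm38). Same-numbered libraries had correlated deviations of −0.0686 to 0.0796. Those of the same condition in the other tissue, which could come from the same mouse, were all above 0, at 0.0218 to 0.0796. Differently numbered libraries of the same condition in the other tissue had −0.105 to 0.0514. The values were small and what the numbers stand for is not stated. Numbers were therefore not taken as pairs, and a pairing by mouse was not excluded. Alternatives were other filters and scalings, limma 3.58.1, DESeq2 1.42.0, the block, a 2-fold minimum and leaving out each library. Some genes that the rule or the lists name are not reported here.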

Additional observations from a re-analysis of the deposited data

Results flagged for a closer look

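The response to Fat1562 differed between the tissues with a change of direction in 28 genes, for which the interaction and both tissue effects passed the edgeR test. In 27 of them every Fat1562 library lay on one side of its controls in VAT and on the other side in Spl/LN, and these are given with their log2 interaction (VAT minus Spl/LN).

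The genes that rose in VAT and fell in Spl/LN were Lrrc32 (3.07), Tbc1d4 (2.80), Chchd10 (2.36), Hbs1l (1.90), AB124611 (1.63), Cd101 (1.54), Slamf6 (1.44), Prc1 (1.19) and Ctss (1.10). Tbc1d4 was near 0 in VAT controls, so its fitted value depends on the prior count.

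The genes that fell in VAT and rose in Spl/LN were Egr1 (−3.16), Lilr4b (−2.72), Echdc2 (−2.41), Plin2 (−2.20), Lilrb4a (−2.10), Lztfl1 (−1.99), Art2a-ps (−1.97), Lgals3 (−1.84), Ltb4r1 (−1.66), Ppm1j (−1.39), Arl5b (−1.31), S100a4 (−1.21), C920009B18Rik (−1.16), Klrg1 (−1.06), Ifngr1 (−0.94), Il2rg (−0.68), Rps6ka1 (−0.63) and Actg1 (−0.61). Lztfl1 lies within the span of Ccr9, so its counts may not be separate from those of Ccr9. The number of opposite genes was 11 without Spl/LN Fat1562 2 and 10 without both control libraries of number 2.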

How the results depend on the processing

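With the replicate block the interaction was called for 435 genes, 395 of them among the 481. What libraries of the same number share is not stated. No class count moved by over 1.5 times, but of the lists E2F targets had 13 positive interactions in place of 5, NF-κB genes 2 negative in place of 4, and heat shock genes 4 called higher in VAT in place of 1. Leaving out 1 library gave 240 to 575 interaction genes, 508 to 1398 for Fat1562 in VAT and 190 to 502 in Spl/LN, 141 to 367 VAT only, 35 to 90 Spl/LN only, 11 to 35 opposite and 7 to 19 same-direction genes. The interaction count was lowest without VAT control 1 (240), VAT Fat1562 2 (276), VAT control 2 (287) or Spl/LN Fat1562 2 (310); a lone VAT control is assumed to vary like the other groups. Without both control libraries of number 2, chosen after seeing the data, there were 251 interaction, 506 VAT effect, 139 VAT only, 10 opposite and 7 same-direction genes. With no filter there were 793 in Spl/LN, 149 Spl/LN only, 51 opposite and 36 same-direction genes. DESeq2 gave 789 for the interaction, 793 in Spl/LN, 467 VAT only, 156 Spl/LN only, 43 opposite and 29 same-direction genes. Same-direction genes numbered 24 with means above 50 and 28 with a coefficient of variation under 0.7. A 2-fold minimum left 277 interaction, 455 VAT effect, 190 Spl/LN effect, 172 VAT only, 47 Spl/LN only and 4 same-direction genes. The causes of these shifts, beyond fewer libraries and the stricter minimum, were not tested. Of the 481 genes, 134 were called in all 19 settings counted by gene. Of 67 named genes, 39 kept their side of the threshold in every alternative, 26 lost it and 2 gained it in at least 1, and 0 reversed. The 2-fold minimum counts among these losses for called genes with an interaction under 1 in size, and for Itih5 it was the only 1. Genes named only as list members are not among the 67, and some of their interactions were less stable. With 2 VAT controls, the VAT effects and the interaction rest on the fewest libraries.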
